A study of Mus musculus with 2 samples.

Results

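The 10 genes described here belong to Notch signalling and to the segmentation of the paraxial mesoderm: the ligands *Dll1* and *Dll3*, the receptors *Notch1* and *Notch2*, the Notch-modifying enzyme *Lfng*, the DNA-binding partner *Rbpj*, the transcriptional repressors *Hes1* and *Hes7*, and the presomitic transcription factors *Mesp2* and *Msgn1*. They were chosen by name, with earlier results of these data known, and all 10 were measured, of 14770 genes measured in all. The samples were 2 whole mouse embryo RNAs of strain C57BL/6 at E7.5, 1 heterozygous (*Dullard*+/-) and 1 homozygous (*Dullard*-/-) for a targeted *Dullard* (*Ctdnep1*) allele, each hybridized to 1 single-colour Agilent array. A wild-type sample was not analysed here, so the heterozygote served as the reference. Both arrays lay on the same slide and were read in the same scan. The targeted alleles were made by replacing *Dullard* sequence, one of them with a *LacZ* reporter, in embryonic stem cells from strains other than, or crossed with, C57BL/6, and embryos of either allele carry the same designation. The sources used here give neither the allele that was on the array nor whether 1 embryo or several supplied each RNA.

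In Notch signalling, a ligand on one cell binds a receptor on its neighbour, the receptor is cut, and its intracellular part enters the nucleus and joins RBPJ at the promoters of targets such as the *Hes* genes. In the presomitic mesoderm, the tissue behind the last somite, this pathway is switched on and off in a cycle together with WNT and FGF signalling, and each cycle prepares a new segment. At E7.5 the mouse embryo is still gastrulating: the primitive streak and nascent mesoderm already express ligands and presomitic factors, and the first somites form later.

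*Ctdnep1*, the targeted gene, had a signal of 672 in the *Dullard*+/- sample and 144 in the *Dullard*-/- sample. Its log2 fold change was -2.11 ± 0.06, which is 4.31-fold lower and rank 3 from the lowest of the 14770 genes, in the direction of the labels. One of the targeted alleles lacks every exon, so a *Ctdnep1* probe lies in its deleted part; the *LacZ* allele lacks some exons, and whether the probe lies in that part is not known here. The remaining signal of 144 was well above background, where the dimmest signal counted as such on that array was 7.27, and its source was not tested. Signals are background-subtracted fluorescence in arbitrary units, and every fold change is *Dullard*-/- over *Dullard*+/- after each array was divided by the 75th percentile of its spots, 286 for *Dullard*+/- and 264 for *Dullard*-/-. The ± value is an error from replicate spots of similar brightness; it covers the measurement on the arrays and not the spread between embryos. With 1 sample per genotype there is no replicate check and no p-value, and the number of arrays limits the precision. Genes were therefore counted by size, at 2-fold. Most markers of visceral endoderm, trophoblast, endothelium, epiblast and mesoderm were well above background in both samples, as the label of a whole embryo states.

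The 10 genes did not move as a group. *Msgn1* and *Dll1* were at least 2-fold lower in the *Dullard*-/- sample and no member was 2-fold higher. Thus 2 of 10 (20.0%) were 2-fold lower, whereas 0.765% of all genes were 2-fold lower, 0.894% were 2-fold higher and 1.66% were either. Because the 10 were chosen with earlier results of these data known, this count is not independent evidence of a direction. *Lfng* lay at the 2-fold line, at 1.996-fold lower. *Mesp2* and *Hes1* were the highest members, both at least 1.5-fold higher and inside 2-fold, a size that 3.92% of all genes reached in that direction. At 1.5-fold, 5 members differed, 3 lower and 2 higher, where 3.37% of all genes were lower and 7.29% were either. The other 5, *Dll3*, *Notch1*, *Notch2*, *Rbpj* and *Hes7*, lay within 1.5-fold, as did 92.7% of all genes. In all, 4 members were lower and 6 higher. Their median log2 fold change was 0.11, beside 0.01 over all genes, and they spanned 2.69 on the log2 scale from *Msgn1* to *Mesp2*. The RNA came from whole embryos, so fewer cells that express a gene and less RNA per cell cannot be told apart.

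**Figure D1:**
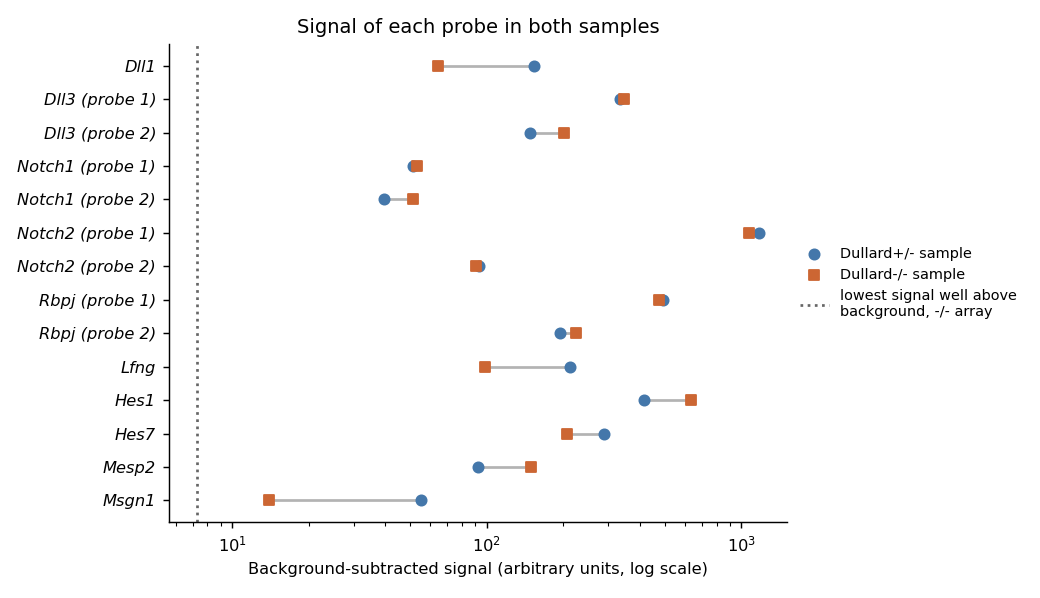
Background-subtracted signal (arbitrary units, log scale) of the 14 probes of the 10 genes, 1 row per probe; circles are the Dullard+/- sample and squares the Dullard-/- sample, before scaling between arrays. The dotted line is the dimmest signal counted as well above background in the Dullard-/- sample (7.27); the Msgn1 probe in that sample (13.9) sits closest to it. Positions along the axis compare samples within a row, not genes.

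The plot of signals by probe shows that the widest gaps belong to *Msgn1*, *Dll1* and *Lfng*, with the *Dullard*-/- sample on the left, and that *Hes1* and *Mesp2* open in the opposite direction. All 14 probes, printed on 23 spots, were well above background in both samples, and no spot of theirs carried an outlier mark. *Dll3*, *Notch1*, *Notch2* and *Rbpj* had 2 probes each and the other 6 genes 1 probe each, so for those 6 no second probe stands beside the value. Across 3747 genes with several probes, fold changes of probes of the same gene had a pooled SD of 0.29 on the log2 scale, larger than the spot error of each of the 10 genes.

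Promoter sequences are shown for the 3 lowest genes, which carry the main difference, and for *Hes7* and *Mesp2*, a target of the pathway that was lower and the highest member. They come from RefSeq on build GRCm38.p6, run from 250 bases before to 50 bases after a start site, and are printed in the direction of transcription. RefSeq promoters matched 9 of the 10 genes by symbol, all but *Hes1*, with 11 promoters in all. Capitals mark matches on either strand to TGGGAA, the core that RBPJ binds, and to CTTTGAA or CTTTGAT, the cores that TCF and LEF factors, the nuclear arm of WNT signalling, bind; AGGTGTGA, a core that T-box factors bind, was searched too.
*Msgn1*, chr12:11208899-11209198, minus strand: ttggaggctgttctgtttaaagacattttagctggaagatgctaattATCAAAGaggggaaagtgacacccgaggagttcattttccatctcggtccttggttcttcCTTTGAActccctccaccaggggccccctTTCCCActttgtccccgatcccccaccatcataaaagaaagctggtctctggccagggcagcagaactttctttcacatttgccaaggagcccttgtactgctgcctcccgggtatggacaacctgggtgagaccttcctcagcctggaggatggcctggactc
*Dll1*, the more upstream of its listed starts, chr17:15376883-15377182, minus strand: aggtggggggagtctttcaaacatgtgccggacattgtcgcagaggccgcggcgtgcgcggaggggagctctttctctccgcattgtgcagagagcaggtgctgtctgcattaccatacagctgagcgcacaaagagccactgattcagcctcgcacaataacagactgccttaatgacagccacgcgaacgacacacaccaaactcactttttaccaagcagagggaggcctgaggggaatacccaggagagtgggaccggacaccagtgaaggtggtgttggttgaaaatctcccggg
*Lfng*, chr5:140607091-140607390, plus strand: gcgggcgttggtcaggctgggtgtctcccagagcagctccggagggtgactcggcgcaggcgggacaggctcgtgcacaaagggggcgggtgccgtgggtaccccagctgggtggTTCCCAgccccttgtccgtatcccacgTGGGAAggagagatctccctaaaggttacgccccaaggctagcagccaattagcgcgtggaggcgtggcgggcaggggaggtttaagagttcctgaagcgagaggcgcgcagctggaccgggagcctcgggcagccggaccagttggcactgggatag
*Hes7*, chr11:69120203-69120502, plus strand: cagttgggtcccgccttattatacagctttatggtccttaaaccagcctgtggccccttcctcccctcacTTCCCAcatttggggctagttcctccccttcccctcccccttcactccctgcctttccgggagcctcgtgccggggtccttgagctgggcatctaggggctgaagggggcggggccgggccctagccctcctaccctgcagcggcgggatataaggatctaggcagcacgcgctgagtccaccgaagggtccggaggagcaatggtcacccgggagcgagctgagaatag
*Mesp2*, chr7:79810477-79810776, plus strand: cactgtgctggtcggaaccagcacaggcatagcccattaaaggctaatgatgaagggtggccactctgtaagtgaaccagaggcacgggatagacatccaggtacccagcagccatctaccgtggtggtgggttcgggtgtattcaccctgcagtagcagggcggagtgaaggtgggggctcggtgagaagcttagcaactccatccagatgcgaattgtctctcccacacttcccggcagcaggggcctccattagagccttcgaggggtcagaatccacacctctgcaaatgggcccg

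In the *Msgn1* window, CTTTGAA begins 143 bases upstream of the start site, CTTTGAT stands on the opposite strand (letters ATCAAAG) 203 bases upstream, and TGGGAA stands on the opposite strand (TTCCCA) 114 bases upstream. *Msgn1* was the single member with a TCF or LEF core, of 9 with a promoter. Of 32851 mouse promoters of this length, 8.65% hold either TCF or LEF core, so 1 match among 9 genes is not unusual. The share with both cores, 0.213%, was not part of the planned search. It describes the 1 window that holds both, and is no test of how unusual that window is. The *Lfng* window holds TGGGAA 108 bases upstream and again on the opposite strand 135 bases upstream, and the *Hes7* window holds it on the opposite strand 180 bases upstream. With *Rbpj*, whose own promoters hold it as well, TGGGAA occurred in 4 of the 9 genes and in 25.6% of all promoters. The first counts genes, some with several promoters, and the second counts promoters, so the shares are not like for like. None of the 9 held AGGTGTGA, which occurs in 1.28% of all promoters, and no match to any of these letters lies in the windows of *Dll1*, *Dll3*, *Notch1*, *Notch2* or *Mesp2*. Of the members with TGGGAA, *Msgn1*, *Lfng* and *Hes7* were lower and *Rbpj* was close to level, while *Dll1* was lower without a match. Whether these letters relate to the values was not tested. These are letter matches in a short window and no measure of binding.

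Among the ligands, *Dll1* (NM_007865), the ligand that activates Notch receptors on neighbouring cells of the streak and presomitic mesoderm, was lower in the *Dullard*-/- sample. Its probe is printed 10 times on each array. In the *Dullard*+/- sample the lowest, median and highest spot signals were 145, 151 and 164 (SD 5.97, n = 10 spots), and in the *Dullard*-/- sample they were 58.7, 63.3 and 73.2 (SD 4.08, n = 10 spots). Every spot of the *Dullard*+/- array was above every spot of the *Dullard*-/- array. Taken over spots, the signal went from 153 to 64.2, a log2 fold change of -1.14 ± 0.03 or 2.21-fold lower, and the spot-by-spot log2 fold changes ran from -1.32 to -1.01 (SD 0.09). The spots repeat 1 probe on 1 RNA per genotype and are not replicate embryos. *Dll1* had rank 74 from the lowest. With all genes ordered by signal and divided into 4 equal bins, it lies in the second bin, in which 1.65% of genes were past 2-fold in either direction.

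**Figure D2:**
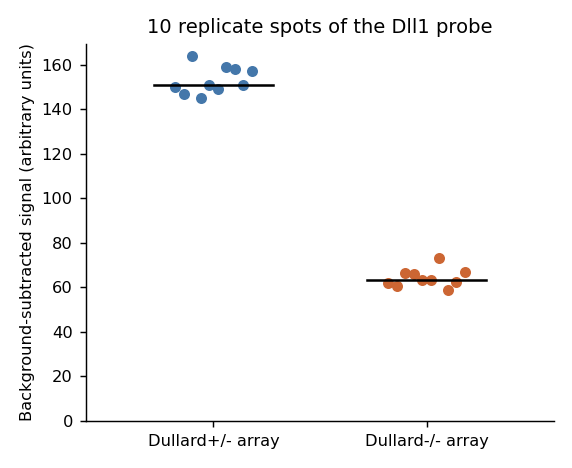
Background-subtracted signal (arbitrary units, axis from 0) of the 10 replicate spots of the Dll1 probe on each array; each point is a spot and the bar is the median (151 for Dullard+/-, 63.3 for Dullard-/-). The point clouds do not overlap: the lowest Dullard+/- spot is at 145 and the highest Dullard-/- spot at 73.2.

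*Dll3* (NM_007866), a divergent ligand that acts inside the cell that makes it and does not activate receptors on neighbours, did not share the lower level of *Dll1*. One probe went from 333 in the *Dullard*+/- sample to 346 in the *Dullard*-/- sample (log2 fold change 0.17 ± 0.06), and the other from 148 to 201 (0.55 ± 0.08). Both probes were higher, and they differ from each other by more than their spot errors. Their mean was 0.36 ± 0.05, or 1.28-fold higher. The log2 fold change of *Dll3* exceeded that of *Dll1* by 1.5 ± 0.06, so the ligands of the segmentation clock moved apart in these samples.

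*Lfng* (NM_008494) encodes a glycosyltransferase that adds sugars to Notch receptors, alters which ligands they answer to, and cycles with the clock. Its signal was 212 in the *Dullard*+/- sample and 98.3 in the *Dullard*-/- sample, a log2 fold change of -1.0 ± 0.08 and rank 115 from the lowest. Unrounded it stood at -0.997, just inside 2-fold, so its side of the line is within its spot error. In its signal bin, the third, 0.379% were past 2-fold in either direction. *Lfng* sits at percentile 50.5 of signal, at the edge of the second bin, in which 1.65% were. The other enzymes of the family, *Mfng* and *Rfng*, were at -0.32 and -0.14, which is above *Lfng* by 0.68 ± 0.12 and 0.86 ± 0.10 on the log2 scale.

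The receptors showed small differences. *Notch1* (NM_008714), the receptor required for segmentation, went from 51.5 to 53.4 on one probe (log2 fold change 0.16 ± 0.12) and from 39.4 to 51.5 on the other (0.50 ± 0.14). Both values are above 0, and their mean was 0.33 ± 0.09, or 1.26-fold higher. *Notch2* (NM_010928), a second receptor of the same family, went from 1170 to 1070 on one probe (-0.02 ± 0.05) and from 93.4 to 90.9 on the other (0.07 ± 0.09), which gave 0.03 ± 0.05. The 2 probes of *Notch2* lie on opposite sides of 0, and the sign of the gene turned under 3 alternatives: -0.08 without scaling between arrays, -0.07 with normexp background correction and -0.02 from the brightest probe alone. *Notch1* was above *Notch2* by 0.30 ± 0.11, close to the pooled SD of 0.29 between probes of the same gene.

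*Rbpj* (NM_009035), the DNA-binding protein through which all Notch receptors act, went from 490 to 474 on one probe (log2 fold change 0.06 ± 0.06) and from 194 to 224 on the other (0.32 ± 0.07). The raw signals moved in opposite directions and both log2 values are above 0, because the *Dullard*-/- array was the dimmer one and was scaled up. The gene stood at 0.19 ± 0.05, or 1.14-fold higher.

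The *Hes* repressors went in opposite directions. *Hes1* (NM_008235), a general Notch target that also answers to other signals, had a signal of 416 in the *Dullard*+/- sample and 634 in the *Dullard*-/- sample, 1.65-fold higher (log2 fold change 0.72 ± 0.05, rank 363 from the highest). *Hes7* (NM_033041), the repressor that paces the segmentation clock in the presomitic mesoderm, had a signal of 289 and 206, 1.30-fold lower (-0.38 ± 0.07, rank 1215 from the lowest). *Hes1* was above *Hes7* by 1.1 ± 0.09 on the log2 scale. *Hes7* lies on chromosome 11 with *Ctdnep1*, with 52 protein-coding genes between them.

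*Mesp2* and *Msgn1*, both basic helix-loop-helix factors of the paraxial mesoderm, gave the highest and the lowest value of the 10. *Mesp2* (NM_008589), which sets segment boundaries in the anterior presomitic mesoderm, had a signal of 92.5 in the *Dullard*+/- sample and 149 in the *Dullard*-/- sample, 1.75-fold higher (log2 fold change 0.80 ± 0.09, rank 265 from the highest). *Mesp1*, its direct neighbour on chromosome 7 with 0 protein-coding genes between and a marker of nascent and cardiac mesoderm, was at -0.04, lower than *Mesp2* by 0.85 ± 0.11. *Msgn1* (NM_019544), which drives the maturation of presomitic mesoderm cells and is a known WNT target, had a signal of 55.4 and 13.9, 3.69-fold lower (-1.88 ± 0.20). It had rank 7 from the lowest of 14770 genes. *Msgn1* also had the largest spot error of the 10 and lies in the lowest of the 4 signal bins, in which 4.49% of genes were past 2-fold in either direction. Before background subtraction its spot had a median signal of 71.0 over a local background of 19.5 on the *Dullard*+/- array, and of 34 over 15.0 on the *Dullard*-/- array. *Mesp2* exceeded *Msgn1* by 2.69 ± 0.22. *Tbx6*, the T-box factor that marks the presomitic mesoderm and acts upstream of *Mesp2*, was at -0.01, above *Msgn1* by 1.87 ± 0.21, so *Tbx6* did not share the lower signal of *Msgn1*.

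**Figure D3:**
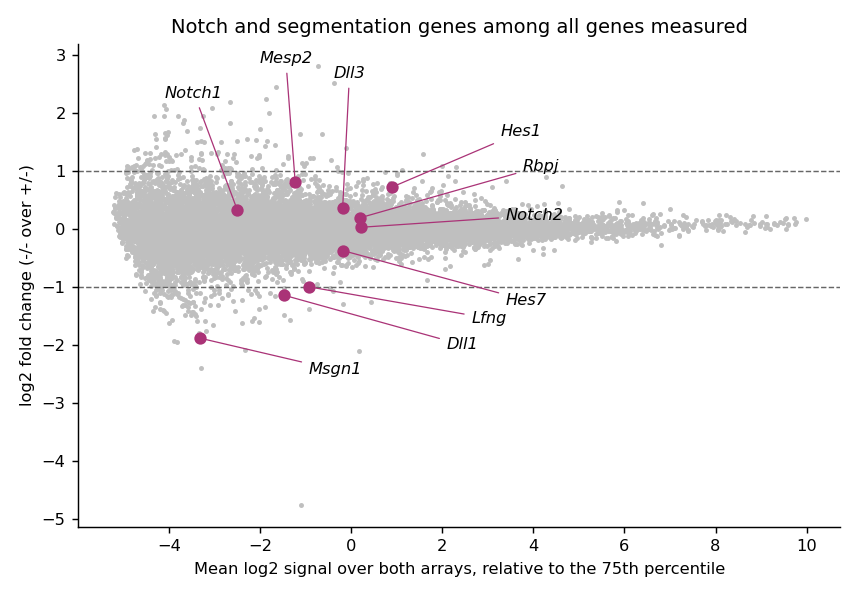
log2 fold change (Dullard-/- over Dullard+/-) against the mean log2 signal relative to the 75th percentile of each array, for the 14770 genes measured (grey) and the 10 genes (purple); dashed lines mark 2-fold. Msgn1 (-1.88) and Dll1 (-1.14) lie under the lower line, Lfng (-1.0) on it, and Mesp2 (0.80) and Hes1 (0.72) near the upper edge of the grey cloud.

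In the plot of fold change against signal, the cloud of all genes narrows from dim to bright, and the share past 2-fold fell from 4.49% in the lowest bin to 0.108% in the highest. *Lfng* lies where few genes come near 2-fold, and *Msgn1* lies where more do.

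Of 7 lists with 93 genes related by pathway or tissue, 79 genes were measured on both arrays; 4 of them (5.06%, beside 0.765% of all genes) were at least 2-fold lower, 0 were 2-fold higher, and the median log2 fold change was -0.05. All 4 are posterior regulators, described after the 4 lists of Notch genes. The other Notch ligands and receptors (6 of 7 measured, *Dlk2* without a named probe) ran from -0.17 for *Dlk1*, a non-canonical ligand, to 0.32 for *Notch3*, with 3 lower and 3 higher. Of the genes of receptor processing and ligand trafficking, 21 of 23 were measured; they ran from -0.61 for *Aph1b*, a subunit of the γ-secretase complex that cuts the receptor, to 0.76 for *Neurl1a*, a ubiquitin ligase that acts on ligands, with 9 lower and 12 higher. In that list 3 of 21 were past 1.5-fold, *Aph1b*, *Neurl1a* and the ubiquitin ligase *Mib2* (0.61), beside 7.29% of all genes. With normexp none of the 3 was (*Aph1b* -0.35, *Neurl1a* 0.47, *Mib2* 0.32). Another *Aph1b* probe was well above background in the *Dullard*+/- sample alone (9.73 against 8.36). Without the filter on dim probes *Aph1b* was at -0.36. All 10 nuclear cofactors were measured, with 3 lower and 7 higher, from -0.08 for the deacetylase *Hdac1* to 0.46 for the corepressor *Spen*. Of 8 other *Hes*, *Hey* and *Nrarp* genes, 5 were measured, from -0.30 for *Hes2* to 0.30 for *Hey1*, while *Hes3*, *Hey2* and *Heyl* were not well above background in either sample. No gene of these 4 lists reached 2-fold. Of all genes 1.66% did in either direction, a share at which lists this short hold few such genes or none. *Dll1* and *Lfng* lay outside the range of every measured gene in them, but were chosen with earlier results of these data known.

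**Figure D4:**
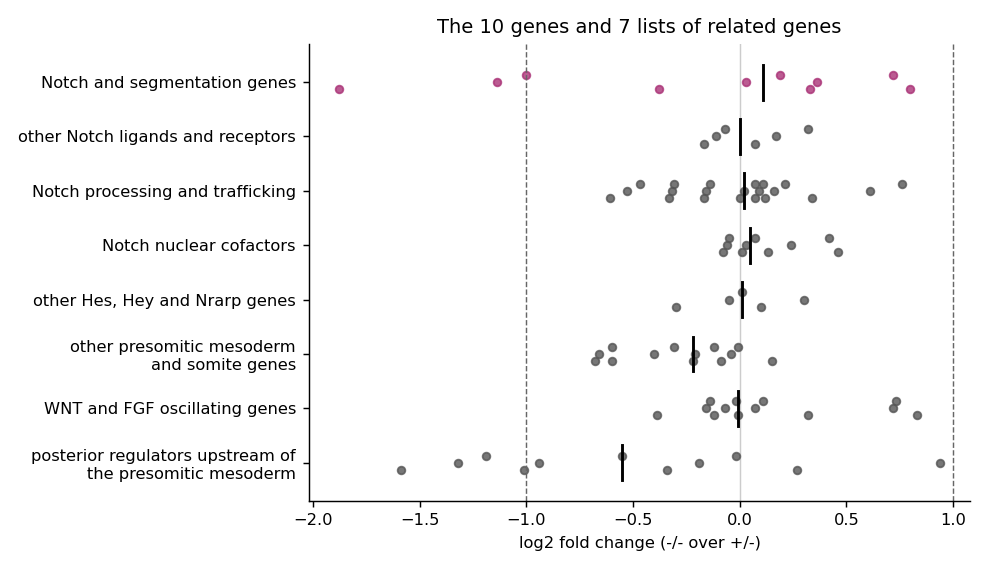
log2 fold change (Dullard-/- over Dullard+/-) of the 10 genes (purple) and of 7 lists of related genes (grey), 1 point per gene measured on both arrays; vertical bars are medians and dashed lines mark 2-fold. The 4 Notch lists centre between 0.00 and 0.05, the other presomitic and somite genes at -0.22 and the posterior regulators at -0.55.

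The mesodermal surroundings of the 10 genes differed from the Notch lists. Of 20 other presomitic mesoderm and somite genes, 13 were measured. Of these, 12 were lower and 1 was higher, where 48% of all genes were lower, and the median was -0.22. *Tbx6* (-0.01 ± 0.07), *Mesp1* (-0.04 ± 0.06) and *Ripply2* (-0.09 ± 0.09) lay about within their spot errors of 0. *Tbx6* was at 0.02 with arrays scaled to their medians and at 0.11 from the brightest probe. The list was chosen with earlier results of these data known, so this count is not independent evidence of a direction. None of the 13 was 2-fold lower and 4 were at least 1.5-fold lower (*Ripply1*, *Foxc1*, *Foxc2* and *Tcf15*), where 3.37% of all genes were. With normexp the median was -0.14 and none of the 4 was past 1.5-fold (*Ripply1* -0.18, *Foxc1* -0.15, *Foxc2* -0.42, *Tcf15* -0.07). All but *Foxc2* were dim, with spot errors of 0.20 for *Ripply1*, 0.22 for *Foxc1* and 0.30 for *Tcf15*. The lowest was *Ripply1*, a transcriptional repressor active where segments form, at -0.68, and the highest was *Uncx*, a gene of the posterior part of each somite, at 0.15. *Tbx18*, a gene of the anterior part of each somite, was well above background in the *Dullard*+/- sample alone (13.4 against 6.94), at least 1.71-fold lower in the *Dullard*-/- sample. This lower bound compares the bright signal with the dimmest one counted as well above background on the other array. *Meox1* (6.95 and 3.28) and *Pax3* (6.82 and 3.47) were above background in the *Dullard*+/- sample alone and too close to the limit for a fold. *Meox2*, *Pax1*, *Pax9* and *Myf5* were not well above background in either sample.

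The posterior regulators that act before the presomitic mesoderm forms held all 4 of the 2-fold lower genes, 4 of 11 measured (36.4%, beside 0.765% of all genes), with 0 higher and a median of -0.55; the study names several of them for these same samples, so their count is not independent evidence of a direction. They were the streak T-box factor *T* (-1.19), the growth factor *Fgf4* (-1.59), and the homeobox genes *Cdx1* (-1.32) and *Nkx1-2* (-1.01). The 3 probes of *Nkx1-2* ran from -2.26 to -0.37, and the gene was inside 2-fold when arrays were scaled to their medians (-0.97), with quantile (-0.92) or loess (-0.91) normalization, with the mean of linear folds (-0.78) and with normexp (-0.21). The median of the list was -0.21 with normexp, -0.74 without the filter on dim probes and -0.94 from the brightest probe alone. *Cdx4*, of the same family as *Cdx1*, was well above background in the *Dullard*+/- sample alone (18.6 against 5.31), at least 2.36-fold lower. *Fgf8* was the highest of the list at 0.94, with its 3 probes from 0.65 to 1.4, and stood at 0.48 with normexp. By in situ hybridization, the study saw weaker *Fgf8* in the posterior part of the streak of *Dullard*-/- embryos. *Dll1* (-1.14) and *Msgn1* (-1.88) both lay below all 13 other presomitic and somite genes measured in both samples.

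Summed over marker lists, with each gene scaled to its array, other cell types moved unevenly between the samples. Each sum takes the mean signal of all probes of a gene, also of genes and probes not well above background. The counts and medians take only genes measured on both arrays. The epiblast and neural plate markers (7 of 7 measured) went from 25.6 in *Dullard*+/- to 33.3 in *Dullard*-/-, with 6 of 7 higher and most of the difference from *Otx2* (7.96 to 14.1), and the node and endoderm markers (3 of 5, *Noto* above background in *Dullard*+/- alone, at least 2.10-fold lower, and *Shh* in neither) from 3.67 to 4.95. The endothelial markers (6 of 6) were mixed: 3 were higher (*Kdr* 0.64, *Etv2* 0.86, *Cdh5* 1.1) and 3 lower (*Tek* -0.93, *Pecam1* -0.38, *Tal1* -0.21), and their sum went from 3.74 to 4.87. *Kdr*, the brightest of them, went from 2.06 to 3.22 as a mean on the log2 scale. Its probes disagreed, at 0.20 and 1.09, and the brightest probe alone gave 0.20. By in situ hybridization at later stages, the study saw less *Flk1* (*Kdr*) in the extraembryonic mesoderm of *Dullard*-/- embryos. *Cdh5*, the one past 2-fold, was dim (signals of 10.4 and 20.7) and stood at 0.29 with normexp. The median of the list was 0.22, and -0.01 from the brightest probe alone. The lateral and cardiac mesoderm markers (5 of 7, *Nkx2-5* and *Tbx5* not above background) had a median of 0.05. *Hand1* (-0.10) and *Bmp4* (-0.32) were lower, *Foxf1* was at 0.05 and *Hand2* at 0.39. Their sum went from 8.86 to 11.1 through *Gata4* (4.41 to 6.87). The probes of *Bmp4* disagreed, at -0.55 and -0.08, and the gene stood at -0.08 from the brightest probe alone and -0.10 with normexp. By Q-PCR, the study found the level of *Bmp4* unchanged in E7.5 *Dullard*-/- embryos. The primitive blood markers went from 1.85 to 0.711 with both measured genes of 6 lower (*Hbb-bh1* -2.08, *Gata1* -1.30), *Hbb-y* at least 1.39-fold lower, and *Hba-x* and *Klf1* not above background in either sample. The definitive red cell markers went from 2.16 to 0.907, all 3 measured of 5 lower, with *Hba-a2* at -1.38. *Hbb-bt* was at least 7.18-fold and *Hbb-bs* at least 2.93-fold lower. The source of these definitive red cell transcripts was not tested. Visceral endoderm (94.4 to 93.1, 8 of 8), extraembryonic ectoderm and trophoblast (14.7 to 14.7, 7 of 8, *Tpbpa* in neither) and decidua (1.47 to 1.46, 4 of 5, *Prl8a2* in neither) were close to level in sum. Within the trophoblast list 4 genes were higher and 3 lower, from *Ascl2* at -0.74 to *Prl3d1* at 1.07. *Prl3d1* was dim (signals of 17.4 and 33.8) and stood at 0.29 with normexp. What part these tissue differences have in the values of the 10 genes was not tested.

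Under 10 alternative ways of processing the arrays, 9 of the 10 genes kept their direction throughout, and *Notch2* did not. *Dll1* ranged from -1.26 to -0.68 and *Msgn1* from -2.0 to -0.47, and each was inside 2-fold with normexp background correction alone. *Lfng* ranged from -1.11 to -0.66 and was past 2-fold in 4 of 11 settings. *Hes1* stayed between 0.58 and 0.76, *Mesp2* between 0.50 and 0.84 and *Hes7* between -0.49 and -0.34, inside 2-fold in every setting. *Dll3* (0.17 to 0.40), *Notch1* (0.16 to 0.37) and *Rbpj* (0.06 to 0.23) were smallest where the brightest probe stood for the gene. Normexp adds an offset of 50 to every signal, which by its construction draws the ratios of dim genes toward 0, and the *Msgn1* signal of the *Dullard*-/- sample is below that offset.

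**Figure D5:**
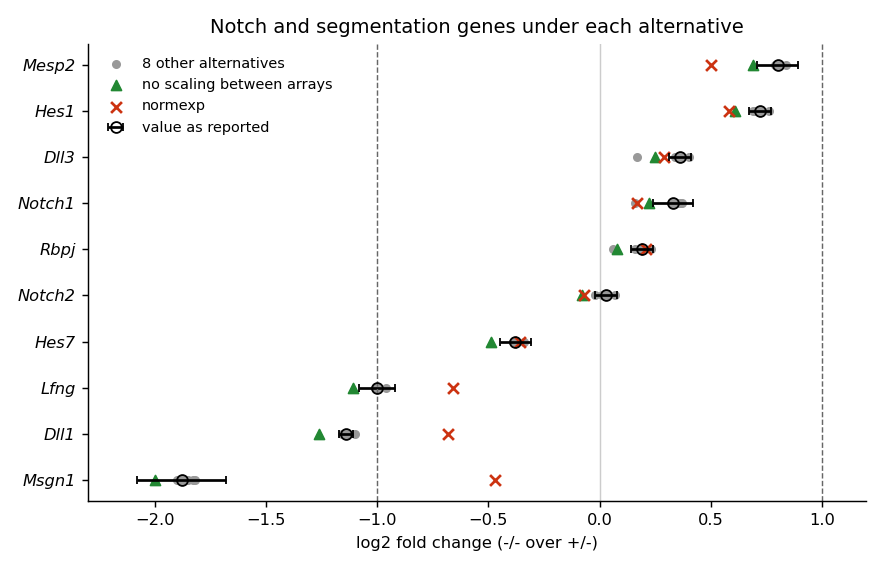
log2 fold change (Dullard-/- over Dullard+/-) of each of the 10 genes as reported (open circle, bar is the error from replicate spots) and under 10 alternatives (filled points, triangle for no scaling, cross for normexp); dashed lines mark 2-fold. Normexp moves Msgn1 from -1.88 to -0.47 and Dll1 from -1.14 to -0.68, and Notch2 is the one gene with points on both sides of 0.

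The plot of the alternatives shows *Msgn1*, *Dll1* and *Lfng* at the bottom and *Hes1* and *Mesp2* at the top in every setting. Normexp brings the lower 3 genes close together and turns the order within each of these groups, with *Dll1* below *Msgn1* and *Hes1* (0.58) above *Mesp2* (0.50).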

How the data were processed

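RNA of 1 *Dullard*+/- and 1 *Dullard*-/- whole-embryo sample was hybridized to 1 array each. The authors deposited spot intensity values extracted and background-subtracted with Agilent Feature Extraction 10.10 (version per the submitters' processing notes), and a table of processed intensity values that equals those signals times 4.91 (*Dullard*+/-) and 5.20 (*Dullard*-/-), with medians of 189 and 181; the target of these constants is not stated. The methods and the labels differ on RNA input and amplification kit.

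Of 43020 spots that are not controls, 31242 (*Dullard*+/-) and 29310 (*Dullard*-/-) were well above background, 0 were saturated, and 206 with an outlier mark were left out. log2 signals were taken relative to the 75th percentile of each array, replicate spots were averaged, and probes well above background in both samples were averaged per gene. The error is the SD between replicate spots, from the 40 nearest in signal of 281 replicated probes and falls with the root of the number of spots or probes averaged. Accessions were named through a RefSeq table of GRCm38.p6, which named 30235 spots and left 12785 without a name. The alternatives were other scalings, quantile and loess normalization, normexp (offset 50, on median signals, since the files used here hold no mean signal), no filter on dim probes, other ways to combine probes, and the processed table. Members and lists were chosen with earlier results of these data known. Named genes are the 10 members, *Ctdnep1*, and in each pathway list the genes past 2-fold, those measured on 1 array alone, or otherwise the highest and lowest, and in marker lists those past 2-fold. *Mfng*, *Rfng*, *Mesp1*, *Tbx6*, *Mib2*, *Foxc1*, *Foxc2*, *Tcf15*, the marker genes inside 2-fold and the other genes named in the closing section were chosen after their values were seen. Simulated arrays with known fold changes were used to test the scaling and the averaging of spots and probes. The errors, lower bounds, alternatives and promoter search were not tested in this way. Software was R 4.3.3 with limma 3.58.1, and Python 3.11.15 with pandas 2.3.3 and numpy 2.4.6.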

Additional observations from a re-analysis of the deposited data

How the results depend on the processing

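Leaving out a replicate was not possible with 1 sample per genotype. No paired analysis was possible because each genotype has 1 sample and the labels give no replicate numbers. With normexp background correction, 0 of the 10 genes (2 as reported) and 0 of the 79 related genes (4 as reported) were at least 2-fold lower, the median of the 10 was 0.050 and *Ctdnep1* was at -1.69. Without scaling between arrays the median of the 10 was -0.003 and *Ctdnep1* was at -2.22, while the median of all genes moved from 0.01 to -0.10 and the share of 2-fold genes that were higher from 53.9% to 35.3%. That share was 38.4% without the filter on dim probes (484 higher and 778 lower of 20281 genes) and 66.7% with normexp (10 higher and 5 lower). From the brightest probe alone, the median of the 10 was 0.023. At 1.5-fold in place of 2-fold, 2 members were higher. The other 44 values of these summaries stayed close to those reported, counts within 1.5 times, and no value past 2-fold changed sign. Dim signals limit *Msgn1* most.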

Other observations

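WNT and FGF genes that oscillate with the segmentation clock were all measured (13 of 13), with 7 lower and 6 higher, 0 past 2-fold and a median log2 fold change of -0.01. The lowest was *Dusp4*, a phosphatase that limits FGF signalling, at -0.39. The 3 genes at least 1.5-fold higher, beside 3.92% of all genes, were *Has2* (0.83), *Egr1* (0.73) and *Snai1* (0.72). *Has2* makes hyaluronan, *Egr1* is an immediate early factor and *Snai1* drives the epithelial to mesenchymal transition of gastrulation. With normexp *Has2* (0.50) and *Snai1* (0.49) were inside 1.5-fold, and *Egr1* stood at 0.60. Signals went from 72.7 in *Dullard*+/- to 120 in *Dullard*-/- for *Has2*, from 177 to 271 for *Egr1* and from 77.0 to 117 for *Snai1*. The WNT targets of the clock, *Axin2* (-0.12), *Nkd1* (-0.01) and *Sp5* (-0.07), lay within 1.5-fold. The probes of *Axin2* (-0.33 and 0.09) and of *Nkd1* (-0.09 and 0.08) lay on opposite sides of 0. The study itself found *Axin2* significantly reduced in E7.5 *Dullard*-/- embryos by Q-PCR, and also by immunostaining, so these array values do not show unchanged WNT output.

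Among the other presomitic and somite genes, those at least 1.5-fold lower besides *Ripply1* were *Foxc1* (-0.66), *Foxc2* (-0.60) and *Tcf15* (-0.60), transcription factors of the paraxial mesoderm. Signals went from 27.7 in *Dullard*+/- to 16.1 in *Dullard*-/- for *Foxc1*, from 173 to 105 for *Foxc2* and from 16.4 to 10 for *Tcf15*, whose spot error was 0.30. *Ripply2*, a target of *Mesp2*, was at -0.09, and *Pcdh8*, a protocadherin of segment borders, at -0.31, where *Mesp2* itself was at 0.80.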
